A study of Mus musculus with 12 samples.

Results

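The difference between 2 responses to lipopolysaccharide (LPS, from the outer membrane of bacteria) was examined gene by gene: the response of osteoclasts, the multinucleated cells that resorb bone, and that of the macrophages from which osteoclasts form. The quantity is a difference of differences. For each gene the mean log2(FPKM + 1) of untreated cells was subtracted from that of LPS-treated cells, and the result for macrophages was subtracted from the result for osteoclasts. FPKM is the number of fragments per kilobase of gene, here scaled to the typical gene of a library. The resulting value is called the interaction: it is 0 where LPS had the same effect in both cell types, below 0 where the effect in osteoclasts was lower, and above 0 where it was higher. Because genes rise or fall with LPS, a value below 0 can be a weaker rise, and a value above 0 a weaker fall. The members are the 11335 of 54532 genes that reached 1 FPKM in at least 3 of the 12 libraries.

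Bone marrow cells of wild-type mice were grown with a source of M-CSF, the growth factor of the macrophage lineage, and became macrophages, or osteoclasts where RANKL was added as well (100 ng/mL in the sample source, and a range in the protocol). Each cell type was left untreated or given 100 ng/mL LPS for 3 h on day 5, which makes 4 groups of 3 libraries. Strain, sex and age of the mice are not given in the sources used here. Nothing there says that the 3 libraries of a group came from separate animals or cultures, so p-values measure only the spread between these libraries, which may be technical.

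The libraries held 15651955 to 20281567 assigned reads, as recovered from the deposited values. Replicates differed by 2.62 to 12.6 times the sampling noise (chi-square per degree of freedom), with the 3 highest values in the LPS-treated osteoclasts. The 19 osteoclast genes, such as the acid phosphatase Acp5 and the integrin chain Itgb3, summed to 31863 to 33394 FPKM in untreated osteoclasts and 1045 to 1087 FPKM in untreated macrophages. The 20 macrophage genes summed to 2203 to 2291 FPKM in untreated osteoclasts, 2246 to 2291 FPKM in osteoclasts with LPS, 6418 to 6730.2 FPKM in untreated macrophages and 8020.2 to 8208 FPKM in macrophages with LPS. Most of the sum in osteoclasts was Cd68, a lysosomal protein, at 1325 to 1447 FPKM, and over the 20 genes the level in untreated osteoclasts was a median of 6.83% of that in untreated macrophages. Both labels therefore matched their markers, and the osteoclast libraries also held RNA of macrophage genes. Summed markers of 4 of the 5 other cell types were higher in macrophage cultures, and those of dendritic cells were not. Without LPS, the 9 B cell markers summed to 19.1 to 20.1 FPKM in macrophages and 0.129 to 0.375 FPKM in osteoclasts, the 11 stromal and osteoblast markers to 27 to 37.2 FPKM and 0.765 to 1.11 FPKM, and the 10 neutrophil markers to 10.1 to 12.7 FPKM and 0.484 to 0.954 FPKM. T and NK cell markers summed to at most 2.97 FPKM in any library, and the 9 dendritic cell markers to 1.98 to 2.38 FPKM in untreated macrophages, 7.59 to 7.94 FPKM in macrophages with LPS and 8.13 to 9.66 FPKM in all osteoclast libraries. Mitochondrial genes took 1.27 to 1.62% of the reads in macrophages and 5.16 to 6.18% in osteoclasts. The part of these differences in the results was not tested.

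LPS-treated osteoclast replicate 2 stood apart. For the 217 genes that rose in both cell types and rose less in osteoclasts, it was a median of 0.35 below its group mean on the log2(FPKM + 1) scale, and below it for 209 of the 217, while replicates 1 and 3 were 0.12 and 0.22 above. The 20 macrophage genes showed a median deviation of -0.31 in the same library, the 19 osteoclast genes 0.06 and all genes tested 0.00. Without this library, limma called 6291 interactions against 6413 with it, and the 217 genes of that class became 243.

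LPS is recognised at the cell surface by Toll-like receptor 4 (Tlr4) with its partners Ly96 and Cd14. The receptor signals through the adapter Myd88 to the NF-kB and MAP kinase pathways, which drive cytokine and chemokine genes, and through the adapter Ticam1 to interferon regulatory factors, which drive interferon beta. Interferon acts back on the cells through its receptor, Jak kinases and Stat factors, and raises a second wave of antiviral genes. NF-kB, Fos and Src also have roles of their own in osteoclasts: RANKL, a relative of tumour necrosis factor, uses NF-kB and Fos to induce Nfatc1, the main transcription factor of osteoclast formation, and the kinase Src is needed for bone resorption.

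The interaction test was limma on log2(FPKM + 1) with Benjamini-Hochberg adjustment over every gene tested, with a call at an adjusted p below 0.05. It called 6413 of the 11335 genes (56.6%), 3012 above 0 (26.6%) and 3401 below 0 (30.0%). Of these, 573 were at 1 or more and 1193 at -1 or less; the same counts were 1068 and 1332 where the pseudocount was 0.1, 1112 and 1275 in voom, and 2254 and 801 as TPM, where those above 0 were the more numerous. LPS alone was called for 7921 genes in macrophages (69.9%) and for 2008 in osteoclasts (17.7%). Both LPS effects share their libraries with the interaction and are given beside it as its parts. The direction of small interactions depended on scaling: 47.0% of the calls were above 0 as deposited, 59.9% after quantile normalization and 82% as TPM, which moved the median gene from -0.01 to 0.51. TPM gave 1222 of the 6413 called genes the opposite sign, voom on the recovered reads 84 and a pseudocount of 0.1 instead of 1 changed the sign of 23. A called interaction had the same sign and a call in all 4 of these fits for 4121 genes (36.4% of those tested), 2674 above 0 (23.6%) and 1447 below 0 (12.8%).

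**Figure D1:**
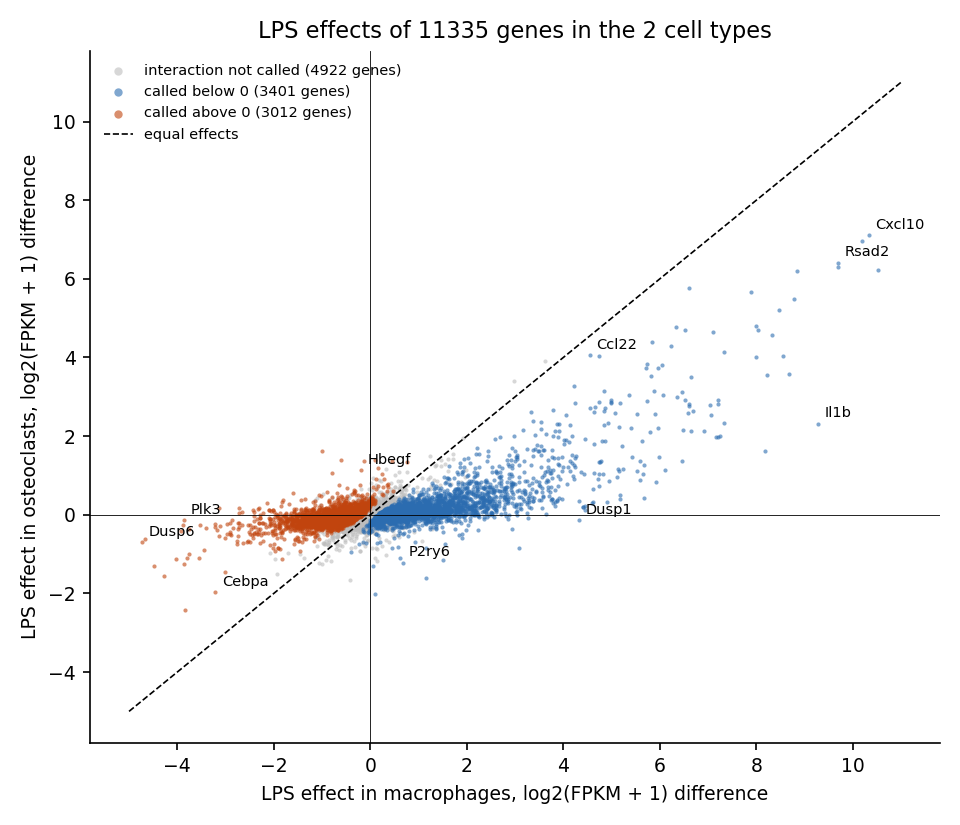
LPS effect in macrophages (horizontal) against LPS effect in osteoclasts (vertical), both as differences of log2(FPKM + 1), with 1 point per gene; colour gives the call of the interaction, and on the dashed line both effects are equal. Most genes with a large effect in macrophages, of either sign, lie between the dashed line and the horizontal line at 0.

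Of the 1365 genes that macrophages raised by at least 1 on this scale, the osteoclast effect was a median of 15.9% of the macrophage effect (quartiles 6.2 and 30.2%). It was under 25% for 920 of them and above 100% for 4. The 718 genes that macrophages lowered by at least 1 retained a median of 12.2% (quartiles 4.0 and 21.3%), and 590 were under 25%. Both sets were chosen by a large macrophage effect, which is itself a term of the interaction. Low shares follow in part from that choice, and genes chosen by their osteoclast effect were not examined in this way. Some members, such as Ifnb1, passed the filter only through LPS-treated macrophages. Genes were then sorted by both effects. In 217 genes both cell types raised the gene by at least 1 and the interaction was called below 0. In 772 genes macrophages raised the level by at least 1, the osteoclast effect was within 0.5 of 0 and the interaction was -1 or less. In 489 genes macrophages lowered the level by at least 1, the osteoclast effect was within 0.5 of 0 and the interaction was 1 or more. Which of these 2 classes was larger depended on scaling: the raised and the lowered class held 427 and 1939 genes as TPM, 728 and 837 where the pseudocount was 0.1, and 718 and 857 in voom. In 9 genes osteoclasts raised the level by at least 1 with an interaction called above 0 (24 as TPM, 25 where the pseudocount was 0.1 and 29 in voom). The call and sign were the same in all 4 fits for 142, 716, 467 and 9 genes of the classes as first counted, and 16 of the 217 had the opposite sign after rescaling to TPM.

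Promoters of some of the responding genes are shown first, because the 2 branches of the pathway end on different short DNA motifs. The interferon-stimulated response element (ISRE) is bound by Stat and interferon regulatory factors, the NF-kB site by NF-kB, and the cyclic AMP response element (CRE) by Creb and related factors. The sequences are RefSeq's, build GRCm38.p6, each the 250 bases before the start on the minus strand, read 5′ to 3′, with ISRE, NF-kB and CRE matches in capitals. They were chosen after their matches had been seen, and of the 26 genes taken by size of interaction within each class of response 22 had a window and 2, Ifnb1 and Vegfa, held an ISRE or NF-kB match. Cxcl10 (chemokine, chr5:92348890-92349139) and Rsad2 (antiviral enzyme, chr12:26456453-26456702) are interferon-stimulated, Ifnb1 (interferon beta, chr4:88522795-88523044) and Nfkbia (NF-kB inhibitor, chr12:55492648-55492897) lie upstream in the pathway, and Dusp1 (MAP kinase phosphatase, chr17:26508473-26508722) had an osteoclast effect of -0.14. The RefSeq start of Dusp1 lies 53656 bases from the 5′ end of its GENCODE gene, and that of Ifnb1 20 bases; the other 3 starts are the same.
Cxcl10: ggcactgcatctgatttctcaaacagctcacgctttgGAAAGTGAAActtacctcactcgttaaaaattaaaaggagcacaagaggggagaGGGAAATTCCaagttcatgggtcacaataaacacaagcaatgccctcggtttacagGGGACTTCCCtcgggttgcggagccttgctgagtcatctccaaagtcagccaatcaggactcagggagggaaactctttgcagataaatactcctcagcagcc
Rsad2: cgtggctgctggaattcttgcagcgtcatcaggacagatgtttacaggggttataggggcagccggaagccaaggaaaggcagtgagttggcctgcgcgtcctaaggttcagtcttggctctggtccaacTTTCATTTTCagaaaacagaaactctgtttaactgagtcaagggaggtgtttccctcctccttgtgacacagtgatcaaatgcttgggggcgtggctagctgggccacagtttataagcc
Ifnb1: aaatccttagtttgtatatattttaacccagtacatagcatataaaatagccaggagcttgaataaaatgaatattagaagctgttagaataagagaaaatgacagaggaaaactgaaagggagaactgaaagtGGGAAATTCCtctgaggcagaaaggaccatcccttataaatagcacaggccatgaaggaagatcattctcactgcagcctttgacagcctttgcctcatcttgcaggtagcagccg
Nfkbia: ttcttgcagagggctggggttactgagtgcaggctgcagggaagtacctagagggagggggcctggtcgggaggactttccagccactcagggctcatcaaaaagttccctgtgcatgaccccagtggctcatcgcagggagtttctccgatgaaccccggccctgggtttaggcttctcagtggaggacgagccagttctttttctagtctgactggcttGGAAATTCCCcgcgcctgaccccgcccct
Dusp1: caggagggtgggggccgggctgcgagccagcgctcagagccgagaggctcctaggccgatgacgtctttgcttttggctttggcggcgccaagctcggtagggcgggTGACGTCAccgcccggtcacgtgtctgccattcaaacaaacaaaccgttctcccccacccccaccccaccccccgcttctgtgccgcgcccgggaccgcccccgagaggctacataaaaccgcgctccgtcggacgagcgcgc
The Cxcl10 window holds an ISRE match that begins 213 bases before the start and NF-kB matches at 159 and 103 bases, whereas Rsad2 has an ISRE match at 120 bases that reads on the opposite strand. Ifnb1 and Nfkbia have an NF-kB match at 116 and 29 bases, and Dusp1 a CRE match at 143 bases. Matches left in lower case are AP-1 in Cxcl10 and Rsad2, TATAAA in Ifnb1 and an E-box in Dusp1.

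Motifs were counted in windows of 300 bases, from 250 before to 50 after the start, for 8437 of the 11335 genes. ISRE (a pair of GAAA runs with any 2 bases between them, both strands) was in 25.5% of the 165 windows of the class raised in both cell types and weaker in osteoclasts. It was in 6.54% of 566 windows of the class raised in macrophages with little osteoclast effect, in 0.274% of 365 windows of genes lowered in macrophages with little osteoclast effect, and in 3.32% of all windows. NF-kB matches (both strands) were in 13.9, 6.54, 3.56 and 5.04% of these 4 sets, in the same order. AP-1 (TGANTCA, both strands) was in 17.6, 6.18, 5.21 and 4.82%, and TATAAA (reading strand only) in 17.6, 6.54, 3.56 and 4.18%. CRE (TGACGTCA) was in 0.606, 4.06, 2.47 and 3.3%, the E-box (CACGTG) in 5.45, 9.72, 12.6 and 10.6%, and the CArG box in 0, 1.77, 1.37 and 1.28%. Of 6 windows of the genes raised more in osteoclasts, 1 held a CArG box and none another of the 7 motifs. Among the 1006 genes with a window that macrophages raised by at least 1, osteoclasts also reached 1 in 44.9% of 89 genes with an ISRE and no NF-kB match, 25.3% of 87 with NF-kB and no ISRE, 33.3% of 9 with both and 13.4% of 821 with neither. The macrophage effects of these sets differed too, with medians of 2.73, 2.26, 3.12 and 1.75, so that an osteoclast effect of 1 was a smaller share of the macrophage effect where a match was present. A match is a string of letters and shows no binding.

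The receptor complex and its adapters differed modestly. Of 16 tested genes of this list, 9 had an interaction called below 0 and 1 above, with a median of -0.33, against -0.01 for all genes. After rescaling to TPM the median was 0.25, and 4 genes below and 1 above were called in all 4 fits. The shares over all genes were 30.0% below 0 and 26.6% above, with 12.8% and 23.6% in all 4 fits. The adapter Myd88 was at 12.1, 14.2 and 16.4 FPKM without and 108, 99.6 and 104 FPKM with LPS in macrophages, and 10.1, 8.8 and 10.2 FPKM without and 14.9, 14.2 and 14.4 FPKM with LPS in osteoclasts. Untreated osteoclasts were slightly below untreated macrophages, and all LPS-treated macrophages were above all other libraries. The interaction of Myd88 was -2.26 (SE 0.12, adjusted p 2.11e-08). Cd14, which hands LPS to the receptor, was at 102, 108 and 118 FPKM without and 763, 764 and 811 FPKM with LPS in macrophages, and 16.4, 16.5 and 15.8 FPKM without and 54.6, 34.2 and 46.9 FPKM with LPS in osteoclasts. No group of libraries overlapped another, and osteoclasts with LPS stayed below macrophages without it. The interaction of Cd14 was -1.43 (SE 0.18, adjusted p 2.48e-05). The kinase Irak2 followed Myd88 with -1.66, and Ly96, the LPS-binding subunit, had -0.89 with effects of 0.96 in macrophages and 0.07 in osteoclasts. Irak4, the kinase that acts directly after Myd88, was the 1 gene called above 0, at 0.32: it fell by 0.31 in macrophages and its osteoclast effect was 0.01.

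Every tested gene for NF-kB subunits, their inhibitors and regulators had an interaction called below 0: 20 of 20, with a median of -2.21 and -1.37 after rescaling to TPM, and 15 called in all 4 fits. Of all genes tested, 30.0% were called below 0 and 12.8% in all 4 fits. Macrophages raised all 20 and osteoclasts 16, against 36.8% and 11.1% of all genes tested. Nfkbia, the inhibitor that holds NF-kB in the cytoplasm, was at 65.3, 64 and 65.4 FPKM without and 1023, 1028 and 1043 FPKM with LPS in macrophages, and 209, 214 and 225 FPKM without and 296, 286 and 268 FPKM with LPS in osteoclasts. It started higher in osteoclasts, rose there by 0.39, and ended highest in LPS-treated macrophages, with no overlap between groups. The interaction of Nfkbia was -3.58 (SE 0.06, adjusted p 5.24e-12). Tnfaip3, a ubiquitin-editing enzyme that ends NF-kB signalling, was at 6.45, 6.19 and 6.16 FPKM without and 512, 493 and 501 FPKM with LPS in macrophages, and 18.9, 19.3 and 20.8 FPKM without and 44.6, 43.6 and 44.7 FPKM with LPS in osteoclasts. Its interaction was -4.98 (SE 0.06, adjusted p 1.86e-13). The subunits followed with smaller values, Nfkb2 with -2.67, Relb with -1.68 and Rela with -1.52. Tnip1, a partner of Tnfaip3, had -2.45. Nfkbiz, a nuclear cofactor of NF-kB, rose by 5.82 and 3.54, and its interaction of -2.28 was -0.59 and not called in voom.

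Among AP-1, Atf3 and Egr factors, which act downstream of MAP kinases, 11 of 16 were called below 0 and 1 above (7 and 1 in all 4 fits), with a median of -0.71 and -0.19 after rescaling to TPM. For all genes the shares were 30.0% below 0 and 26.6% above, and 12.8% and 23.6% in all 4 fits. Junb, an AP-1 subunit, was at 71.3, 71.4 and 71.3 FPKM without and 424, 418 and 434 FPKM with LPS in macrophages, and 60.5, 65.3 and 68 FPKM without and 103, 94.8 and 97.8 FPKM with LPS in osteoclasts. It rose in both cell types, with an interaction of -1.96 (SE 0.06, adjusted p 2.93e-10). Batf and Mafk, further factors of the leucine zipper family, had interactions of -2.74 and -2.75. Fos was the gene above 0. It was at 47, 46.7 and 46.3 FPKM without and 25.9, 26.4 and 24.2 FPKM with LPS in macrophages, and 101, 95.2 and 101 FPKM without and 101, 105 and 95.1 FPKM with LPS in osteoclasts. Macrophages lowered it and osteoclast libraries with and without LPS overlapped, at about the level of each other and above all macrophage libraries. The interaction of Fos was 0.87 (SE 0.07, adjusted p 3.35e-07). Fosl2 was at 5.44 ± 0.103 FPKM in untreated macrophages and 84.3 ± 3.18 FPKM in untreated osteoclasts (SD, n = 3), and its LPS effects were 0.68 and -0.12, the latter not called. Its interaction was -0.80.

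The MAP kinase phosphatases and Sprouty genes, which end MAP kinase signalling, were split: 8 of 15 were called above 0 and 6 below, with 8 and 5 in all 4 fits. Their median was 0.29, and 0.73 as TPM. Among all genes tested, 26.6% were above 0 and 30.0% below, with 23.6% and 12.8% in all 4 fits. Dusp1, an immediate early phosphatase of p38 and Jnk, (ENSMUSG00000024190, chromosome 17 at 26505590 to 26562128) was at 7.57, 8.14 and 8.67 FPKM without and 158, 202 and 190.4 FPKM with LPS in macrophages, and 5.16, 5.4 and 4.95 FPKM without and 4.25, 5.48 and 4.16 FPKM with LPS in osteoclasts. Only LPS-treated macrophages stood above the rest, and osteoclast libraries overlapped with and without LPS. The interaction of Dusp1 was -4.47 (SE 0.14, adjusted p 2.55e-10). Dusp2, a nuclear phosphatase, (ENSMUSG00000027368, chromosome 2 at 127336159 to 127338376) was at 0.711, 1.04 and 0.785 FPKM without and 263, 272 and 279.9 FPKM with LPS in macrophages, and 0.703, 0.65 and 0.881 FPKM without and 6.88, 4.83 and 5.99 FPKM with LPS in osteoclasts. The untreated libraries of the cell types overlapped, both rose, and the LPS-treated libraries did not overlap. The interaction of Dusp2 was -5.24 (SE 0.14, adjusted p 8.22e-11). Dusp16, a Jnk phosphatase, had -2.83. Dusp6, an Erk phosphatase, was at 73, 70.7 and 63 FPKM without and 1.5, 1.65 and 1.77 FPKM with LPS in macrophages, and 11.5, 11.4 and 11.8 FPKM without and 7.35, 6.13 and 6.89 FPKM with LPS in osteoclasts. It fell in both cell types, and osteoclasts, which began lower, ended above LPS-treated macrophages. The interaction of Dusp6 was 4.03 (SE 0.10, adjusted p 3.57e-11). Dusp4 fell by 2.72 in macrophages and had an effect of 0.16 in osteoclasts, with an interaction of 2.88. Dusp7 had 2.77, and Spry2, an inhibitor of receptor tyrosine kinase signalling, 1.29, both with osteoclast effects under 0.5 in size. Spred1, of the same family as Spry2, had -1.41.

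With the pseudocount of 1, the inflammatory cytokines held the lowest interactions of all genes named. Of 21 tested, 18 were called below 0 and none above (15 below 0 in all 4 fits), with a median of -1.95, -3.72 where the pseudocount was 0.1 and -2.49 as TPM. Below 0 were 30.0% of all genes, and 12.8% in all 4 fits. Limma called 20 as raised in macrophages and 14 in osteoclasts, beside 36.8% and 11.1% of all genes. Il1b, the fever-inducing cytokine released by inflammasomes, (ENSMUSG00000027398, chromosome 2 at 129364570 to 129371139) was at 0.226, 0.134 and 0.212 FPKM without and 733, 722 and 759 FPKM with LPS in macrophages, and 0, 0.031 and 0 FPKM without and 5.4, 2.99 and 4.02 FPKM with LPS in osteoclasts. Both cell types held next to none without LPS, and with LPS the libraries of the cell types were far apart. The interaction of Il1b was -6.96 (SE 0.18, adjusted p 4.86e-11). Il1a, its membrane-bound relative, (ENSMUSG00000027399, chromosome 2 at 129299610 to 129309972) had, with LPS, 310 to 318 FPKM in macrophages and 1.68 to 3.12 in osteoclasts. Its interaction was -6.56 (SE 0.17, adjusted p 5.32e-11). Il1rn, the secreted antagonist of the receptor of both, (ENSMUSG00000026981, chromosome 2 at 24336853 to 24351494) was at 1.33, 1.28 and 1.69 FPKM without and 132, 106 and 132 FPKM with LPS in macrophages, and 15.9, 15.8 and 16.3 FPKM without and 22.2, 21.2 and 22.2 FPKM with LPS in osteoclasts. In contrast to Il1b and Il1a it was higher in untreated osteoclasts than in untreated macrophages, and LPS reversed that order. The interaction of Il1rn was -5.25 (SE 0.12, adjusted p 2.31e-11).

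Il10, Il12b and Il6 were at 1.15 FPKM or less in every untreated library. A group with 3 reads or fewer in each library is taken as at the floor, and an interaction then depends on the pseudocount. Among the genes named, this holds for untreated macrophages in Ifnb1, Il12b, Il6, Cxcl9 and Nos2, and for untreated osteoclasts in Il1b, Ifnb1, Il12b, Il6, Cxcl11, Cxcl9, Ccl5 and Iigp1. Il10, an inhibitory cytokine, reached 83.5, 80.8 and 83.4 FPKM in macrophages and 2.12, 1.63 and 1.34 FPKM in osteoclasts, an interaction of -4.70. Il12b, a subunit shared by 2 T cell-directing cytokines, reached 303, 308 and 281 FPKM and 13.2, 7.49 and 12.3 FPKM, and Il6, an inducer of the acute phase response, 139.7, 127 and 134 FPKM and 5.22, 3.45 and 5.91 FPKM. In all 3 the LPS-treated libraries of the cell types did not overlap. Il27, a further member of this cytokine family, had an interaction of -4.00. Lif, a cytokine of the Il6 family, was the exception in level: it was at 0.754, 0.489 and 0.268 FPKM without and 3.26, 4.84 and 3.83 FPKM with LPS in macrophages, and 24.5, 25.9 and 25.9 FPKM without and 28.5, 32 and 28.5 FPKM with LPS in osteoclasts. Osteoclasts were high throughout and macrophages rose to a lower level, so that its interaction was -1.51 while LPS-treated osteoclasts stayed above LPS-treated macrophages.

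Of 19 tested chemokines, 17 were called below 0 and none above (11 in all 4 fits), with a median of -1.93 and -1.33 after rescaling to TPM. The share below 0 was 30.0% over all genes, and 12.8% in all 4 fits. Cxcl10, the T cell attractant whose promoter is shown above, reached 4579.9, 4564 and 4805 FPKM in macrophages and 239.8, 141 and 260.1 FPKM in osteoclasts. Its interaction was -3.21, with -2.04 and no call in voom. Cxcl11 and Cxcl9, which use the same receptor, had interactions of -5.09 and -4.40, and Ccl5, an attractant of T cells and monocytes, -4.28. Ccl22 differed from these. It was at 0.0371, 0.0915 and 0.0193 FPKM without and 19.5, 26.4 and 25.7 FPKM with LPS in macrophages, and 0.583, 0.484 and 0.405 FPKM without and 27.3, 20.1 and 25.1 FPKM with LPS in osteoclasts. LPS-treated libraries of the 2 cell types overlapped, so that osteoclasts reached the macrophage level. Its interaction was -0.49 (SE 0.17, adjusted p 0.0282), was -3.25 in voom, and lost its call without the filter (adjusted p 0.0749), after quantile normalization (adjusted p 0.0707) and when macrophage replicates 1 or 3 without LPS, macrophage replicates 2 or 3 with LPS, osteoclast replicate 1 without LPS or osteoclast replicate 2 with LPS were left out, with -0.37 to -0.48 and adjusted p 0.0525 to 0.0688 over those 6 settings. Ccl9, a chemokine known in osteoclasts, rose from 149 ± 2.69 FPKM to 838 ± 29.3 FPKM in macrophages and from 412 ± 14 FPKM to 710.4 ± 45.7 FPKM in osteoclasts (SD, n = 3). Its interaction was -1.70 (SE 0.07, adjusted p 1.88e-09). As ratios of mean FPKM with and without LPS, Cxcl1 rose 452-fold in macrophages and 434-fold in osteoclasts, and Cxcl2 126-fold and 268-fold. Untreated osteoclasts held 1 to 4 reads of Cxcl1 and 5 to 12 of Cxcl2. The other raised chemokines with such a ratio in both cell types had the lower ratio in osteoclasts.

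Interferon, its receptor and its signal transducers were called below 0 for 18 of 21 genes (15 in all 4 fits) and above 0 for none, with a median of -1.19 and -0.66 as TPM. By comparison, 30.0% of all genes were below 0, and 12.8% in all 4 fits. Ifnb1 (ENSMUSG00000048806, chromosome 4 at 88522025 to 88522774) was at 0 FPKM in each library without and 54, 72.6 and 54.1 FPKM with LPS in macrophages, and 0 FPKM in each library without and 0.539, 0.865 and 0.95 FPKM with LPS in osteoclasts. It was at 0 without LPS in both cell types, and its LPS-treated libraries did not overlap. The interaction of Ifnb1 was -5.09 (SE 0.16, adjusted p 2.43e-10). Irf1, an interferon regulatory factor, had -2.95 and the kinase Jak2 -2.10. Irf8, a factor of the macrophage lineage, was at 23.4, 21.4 and 23.1 FPKM without and 88.5, 96.8 and 100.1 FPKM with LPS in macrophages, and 1.16, 1.08 and 1.01 FPKM without and 0.752, 0.506 and 0.979 FPKM with LPS in osteoclasts. Macrophages raised it, and osteoclasts held it at a low level that did not pass the test for a change with LPS. The interaction of Irf8 was -2.29 (SE 0.12, adjusted p 1.67e-08). Ifnar1, a chain of the interferon receptor, rose by 1.04 in macrophages and had an effect of -0.10 in osteoclasts, with an interaction of -1.14.

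The interferon-stimulated antiviral genes responded in both cell types: macrophages raised 30 of 30 tested and osteoclasts 29, beside 36.8% and 11.1% of all genes. The interaction was called below 0 for 29, with a median of -2.08 and -1.44 after rescaling to TPM, but the sign and call held in all 4 fits for only 17. Over all genes these shares were 30.0% and 12.8%. Ifit1, which binds viral RNA, reached 2920.0, 2623 and 2787 FPKM in macrophages and 134, 79.4 and 150.0 FPKM in osteoclasts, and its interaction was -3.40. Rsad2 reached 3084, 2804 and 3098 FPKM and 113, 74.3 and 143 FPKM, with -3.28, which was -1.49 and not called in voom. In both, osteoclast replicate 2 was the lowest of its group, as it was below the group mean for 30 of the 30 genes, by a median of 0.37. Oasl1, a relative of the RNA-sensing oligoadenylate synthetases, had -3.74. Mx2, an antiviral GTPase, had -4.27, which was -0.22 and not called in voom, and Isg15, a ubiquitin-like modifier, had -1.56, not called in voom or after rescaling to TPM.

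Guanylate-binding proteins and immunity-related GTPases, which attack microbes inside the cell, were called below 0 for 13 of 13 (8 in all 4 fits), with a median of -2.68. For this list and the MHC lists below, the shares over all genes were 30.0% below 0 and 12.8% in all 4 fits. Gbp5 reached 451, 403 and 433 FPKM in macrophages and 21.3, 13.9 and 24.4 FPKM in osteoclasts, from under 0.5 FPKM in each untreated library, and its interaction was -4.51. Iigp1 had -5.23 but no call in voom, with -2.32. Gbp7 was higher in untreated osteoclasts than in untreated macrophages, and its interaction was -3.70. In the MHC class I and immunoproteasome list 13 of 15 were called below 0 (11 in all 4 fits), with a median of -1.12 and -0.55 as TPM. Its peptide transporter gene Tap1 had -2.54, and H2-K1 and B2m, the chains of the class I molecule, -0.98 and -0.85, the last not called after quantile normalization. In the list of MHC class II and costimulation genes 7 of 10 were called below 0 (4 in all 4 fits), among them Cd274, an inhibitory ligand of T cells, with -4.00.

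Feedback inhibitors and mRNA decay genes were called for all 15 tested, 11 below 0 and 4 above (10 and 4 in all 4 fits). Across all genes the shares were 30.0% below 0 and 26.6% above, and 12.8% and 23.6% in all 4 fits. Socs3, which blocks cytokine receptor signalling, was at 1.25, 1.28 and 1.01 FPKM without and 879, 871 and 907 FPKM with LPS in macrophages, and 0.225, 0.102 and 0.163 FPKM without and 15.3, 8.06 and 17.1 FPKM with LPS in osteoclasts. Both cell types raised it, and no LPS-treated osteoclast library came near those of macrophages. The interaction of Socs3 was -5.09 (SE 0.27, adjusted p 1.67e-08), and that of its relative Socs1 -4.99. Zfp36, a protein that marks cytokine mRNA for decay, rose from 21.6 ± 0.766 FPKM to 320.3 ± 9.04 FPKM in macrophages and from 21.8 ± 1.96 FPKM to 34.5 ± 1.19 FPKM in osteoclasts (SD, n = 3), with an interaction of -3.19. Its relatives went the other way. Zfp36l2 was at 120.3, 114 and 113 FPKM without and 13.1, 13.5 and 13.8 FPKM with LPS in macrophages, and 56.9, 59.4 and 58 FPKM without and 37, 40.9 and 37.1 FPKM with LPS in osteoclasts, and fell in both cell types. Its interaction was 2.42 (SE 0.06, adjusted p 6.52e-11). Zfp36l1 fell by 1.18 in macrophages and rose by 0.33 in osteoclasts, with 1.51, and Trib1, a pseudokinase that directs Cebpa to degradation, had 1.60.

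Effector enzymes and cell death genes mostly lay below 0. Of all genes, 30.0% were below 0 and 26.6% above, with 12.8% and 23.6% in all 4 fits. List medians were -1.90 for the enzymes, -0.60 for inflammasome and pyroptosis genes and -0.82 for apoptosis regulators. After rescaling to TPM they were -1.48, -0.06 and -0.27. Of 16 tested enzymes of itaconate, nitric oxide and prostaglandin synthesis, 13 were called below 0 and 1 above (9 and 0 in all 4 fits). Acod1, which makes itaconate, reached 2336, 2084 and 2134 FPKM in macrophages and 213, 133 and 215 FPKM in osteoclasts, and its interaction was -3.24. Nos2, the inducible nitric oxide synthase, had -2.74 (not called in voom, at -5.05) and Ptges, a prostaglandin E synthase, -2.98. Sphk1, which makes sphingosine phosphate, was higher in osteoclasts in every library and had LPS effects of 1.71 in macrophages and -0.19, not called, in osteoclasts, with -1.90. Among inflammasome and pyroptosis genes 8 of 12 were below 0 and 2 above (6 and 1 in all 4 fits), with Casp4, the sensor of LPS inside the cell, at -3.15 and Gsdmd, the pore-forming protein, at -1.28. Among apoptosis regulators 13 of 20 were below 0 and 3 above (11 and 3 in all 4 fits). Bcl2a1d, a survival factor, had -4.06 and Pmaip1, a death-promoting protein, 0.69. Pmaip1 fell by 0.35 in macrophages and rose by 0.34 in osteoclasts.

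**Figure D2:**
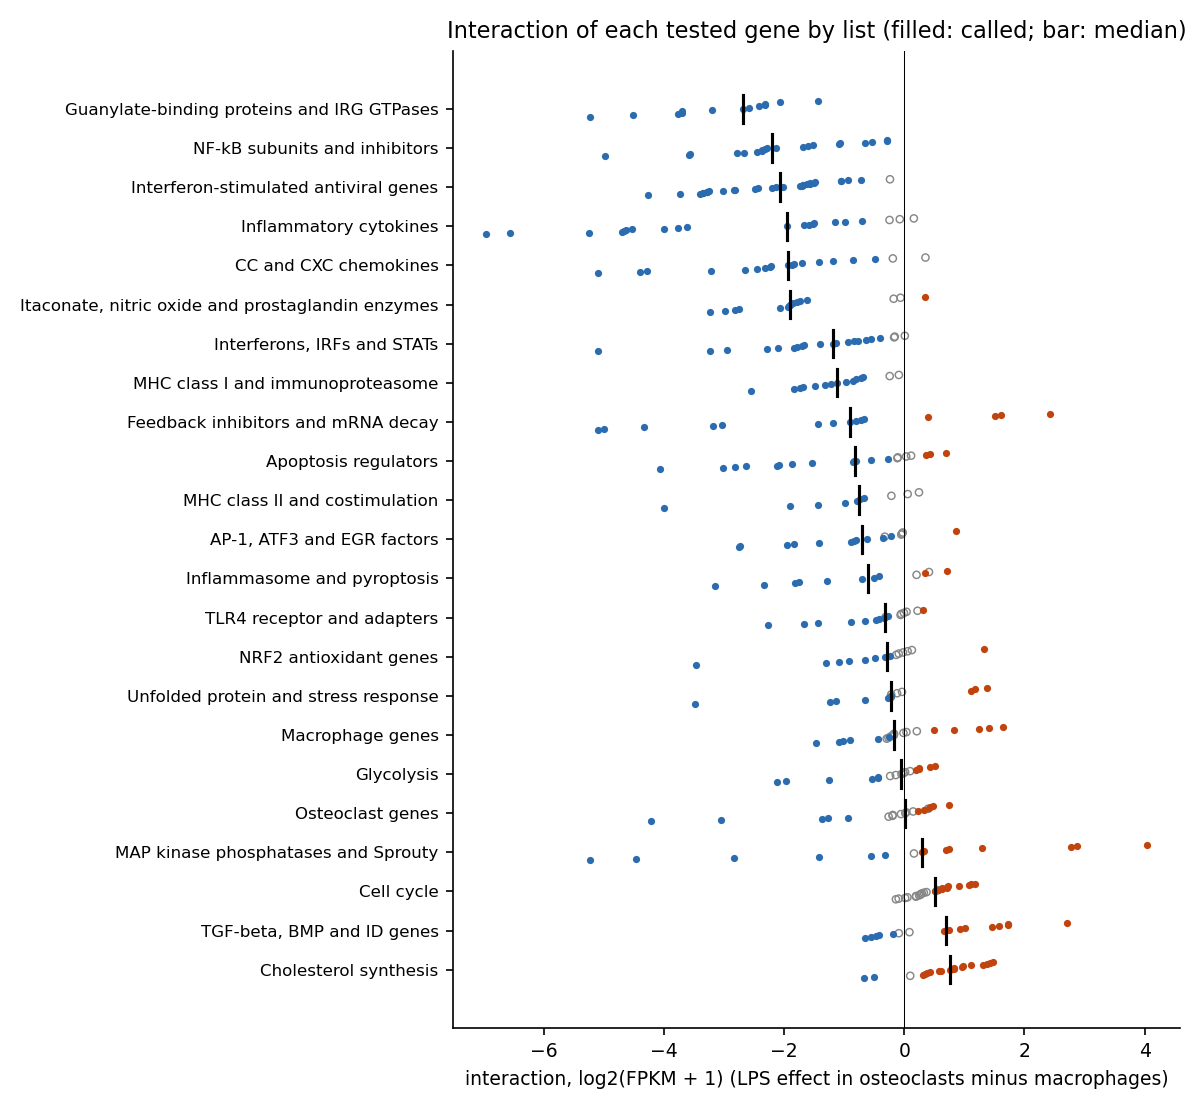
Interaction of each tested gene (points; filled where called, blue below 0 and red above) in 23 gene lists ordered by their median (bar), on the log2(FPKM + 1) scale. Guanylate-binding proteins, NF-kB genes and antiviral genes lie below 0, and cholesterol synthesis and cell cycle genes mostly above; the medians of 5 lists near 0 have the opposite sign after rescaling to TPM.

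Metabolic and stress lists near 0 were mixed. Their medians were -0.05 for 17 glycolysis genes, -0.22 for 13 genes of the unfolded protein response and -0.28 for 14 antioxidant genes, and 0.53, 0.34 and 0.29 after rescaling to TPM. In glycolysis 6 genes were called below 0 and 5 above (3 and 5 in all 4 fits), which is near the 30.0% and 26.6% of all genes. Among the called were Pfkfb3, which speeds up the pathway, with -2.12, Hk2, its entry enzyme, with -1.97 and Pgam1, a mutase, with 0.50. In the unfolded protein list 6 were below 0 and 3 above (3 and 3 in all 4 fits). The shares of all genes in all 4 fits were 12.8% below 0 and 23.6% above. Ppp1r15a, a phosphatase subunit that restores translation, was at 2.64, 1.81 and 1.79 FPKM without and 38.5, 48.1 and 38.4 FPKM with LPS in macrophages, and 17.2, 17.2 and 17.8 FPKM without and 20.7, 23.2 and 21.5 FPKM with LPS in osteoclasts. Macrophages rose from below to above osteoclasts, with an interaction of -3.49 (SE 0.15, adjusted p 2.8e-09). Sesn2, a stress-induced inhibitor of mTOR signalling, fell in macrophages and had 1.38. In the antioxidant list 8 were below 0 and 1 above (4 and 1 in all 4 fits): the cystine transporter gene Slc7a11 had -3.47, and Gclc, the enzyme of the next step towards glutathione, 1.32.

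Genes that LPS lowered in macrophages and left near their level in osteoclasts numbered 489 (1939 as TPM, 837 where the pseudocount was 0.1 and 857 in voom), with a median effect of -1.43 in macrophages and -0.12 in osteoclasts. The 4 that the naming rule took encode regulators. Plk3, a stress-responsive kinase, (ENSMUSG00000028680, chromosome 4 at 117128655 to 117133963) was at 27.5, 25.2 and 23.7 FPKM without and 0.774, 0.847 and 0.843 FPKM with LPS in macrophages, and 9.38, 8.6 and 9.97 FPKM without and 8.44, 7.92 and 8.9 FPKM with LPS in osteoclasts. Only LPS-treated macrophages were under 1 FPKM, and osteoclast libraries with and without LPS overlapped. The interaction of Plk3 was 3.73 (SE 0.09, adjusted p 4.53e-11). Irf2bp2, a corepressor, (ENSMUSG00000051495, chromosome 8 at 126588296 to 126593986) was at 38.8, 37.2 and 35.2 FPKM without and 1.65, 1.57 and 1.29 FPKM with LPS in macrophages, and 31.9, 30.2 and 31.5 FPKM without and 22.3, 23.5 and 23.5 FPKM with LPS in osteoclasts. It fell by 3.93 in macrophages and by 0.42 in osteoclasts on the log2 scale, and no groups overlapped. The interaction of Irf2bp2 was 3.51 (SE 0.08, adjusted p 2.72e-11). Hhex, a homeobox factor, (ENSMUSG00000024986, chromosome 19 at 37434810 to 37440731) had 3.38 (SE 0.07, adjusted p 2.31e-11). The growth regulator Myc (ENSMUSG00000022346, chromosome 15 at 61985391 to 61990374) was at 22.8, 25.2 and 22.9 FPKM without and 1.3, 1.9 and 2.25 FPKM with LPS in macrophages, and 9.69, 9.93 and 9.1 FPKM without and 11.3, 11.7 and 9.64 FPKM with LPS in osteoclasts. Osteoclast libraries with and without LPS overlapped, and with LPS they held more of it than macrophages, the reverse of the order without. The interaction of Myc was 3.31 (SE 0.15, adjusted p 5.46e-09).

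Cholesterol synthesis had the largest share above 0 of the 23 lists: 16 of 19 genes, all 16 in all 4 fits, and 2 below, with a median of 0.76 and 1.35 as TPM. Above 0 were 26.6% of all genes, and 23.6% in all 4 fits. Macrophages lowered 15 and raised 2, and osteoclasts raised 6 and lowered none; over all genes 33.1% were lowered in macrophages and 6.59% in osteoclasts. Lss, which closes the sterol rings, was at 5.67, 5.61 and 5.69 FPKM without and 1.31, 1.3 and 1.48 FPKM with LPS in macrophages, and 4.44, 4.41 and 4.13 FPKM without and 3.97, 4.35 and 4.43 FPKM with LPS in osteoclasts. LPS-treated macrophages stood below all other libraries, and osteoclasts with and without LPS overlapped. The interaction of Lss was 1.47 (SE 0.08, adjusted p 1.17e-08). Mvd had 1.38 and Sqle 1.31, both enzymes of the same pathway. The osteoclast effect of Mvd was 0.06.

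TGF-beta, BMP and Id genes were above 0 for 9 of 16 and below for 5 (7 and 0 in all 4 fits), with a median of 0.70 and 1.36 as TPM. Over all genes 26.6% were above 0, 30.0% below 0 and 23.6% above 0 in all 4 fits. Smad7 and Smad6, inhibitors of these pathways, both had an interaction of 1.73, with macrophage effects of -1.58 and -2.19 and osteoclast effects of 0.15 and -0.46. Ski, a corepressor of Smad proteins, had 1.57. Of 25 cell cycle genes, 12 were above 0 and none below (7 in all 4 fits), with a median of 0.51 and 1.06 as TPM. Macrophages lowered 16 of the 25 and osteoclasts 1, beside 33.1% and 6.59% of all genes. Cdc20, which starts the exit from mitosis, was at 18, 14.5 and 16.6 FPKM without and 6.5, 8 and 8.27 FPKM with LPS in macrophages, and 2.93, 2.63 and 2.55 FPKM without and 3.3, 2.08 and 3.37 FPKM with LPS in osteoclasts, and its interaction was 1.08. Osteoclasts held little of it with or without LPS. Cdc6, a licensing factor of DNA replication, had 1.18 and was not called in voom.

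Osteoclasts raised 9 genes by at least 1 with an interaction called above 0. The rule named 4, and the others were Ankrd33b, Fhl2, Synpo2, Gm22270 and Mir7213. Hbegf, a growth factor of the EGF family, (ENSMUSG00000024486, chromosome 18 at 36504927 to 36515805) was at 3.4, 2.81 and 2.33 FPKM without and 2.44, 1.95 and 2.67 FPKM with LPS in macrophages, and 8.65, 8.75 and 9.64 FPKM without and 19.2, 22.8 and 20.8 FPKM with LPS in osteoclasts. Macrophage libraries overlapped with and without LPS, and osteoclasts rose from a higher level. The interaction of Hbegf was 1.32 (SE 0.15, adjusted p 1.28e-05). Ptpre, a tyrosine phosphatase that acts on Src in osteoclasts, (ENSMUSG00000041836, chromosome 7 at 135537481 to 135686293) was at 7.29, 7.24 and 7.21 FPKM without and 10.5, 10.6 and 9.86 FPKM with LPS in macrophages, and 27.1, 25.7 and 27.4 FPKM without and 68.4, 74.4 and 70.3 FPKM with LPS in osteoclasts. Both cell types raised it and no groups overlapped. The interaction of Ptpre was 0.92 (SE 0.06, adjusted p 1.2e-07). Fam83g (ENSMUSG00000042377, chromosome 11 at 61684091 to 61709951) was at 1.12, 1.47 and 1.21 FPKM without and 1.13, 1.91 and 1.55 FPKM with LPS in macrophages, and 2.38, 2.56 and 2.25 FPKM without and 6.49, 6.98 and 6.58 FPKM with LPS in osteoclasts, with an interaction of 1.03 (SE 0.14, adjusted p 6.32e-05). Arhgap22, a regulator of small GTPases, (ENSMUSG00000063506, chromosome 14 at 33214026 to 33369934) was at 12.3, 11.5 and 10.8 FPKM without and 13.7, 14.5 and 13.4 FPKM with LPS in macrophages, and 0.839, 0.595 and 0.698 FPKM without and 2.98, 1.71 and 2.91 FPKM with LPS in osteoclasts. It was highest in macrophages with or without LPS and rose in osteoclasts from a low level. The interaction of Arhgap22 was 0.78 (SE 0.18, adjusted p 0.00248). The class held 13 genes without LPS-treated osteoclast replicate 2, 24 as TPM, 25 where the pseudocount was 0.1 and 29 in voom.

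In 7 genes the 2 effects were called in opposite directions, each with a size of at least 0.5, and in 14 osteoclasts lowered the gene by at least 0.5 with an interaction called below 0. P2ry6, a receptor for extracellular nucleotides, (ENSMUSG00000048779, chromosome 7 at 100937630 to 100974649) belongs to both and was at 102, 110.3 and 101 FPKM without and 164, 165 and 172 FPKM with LPS in macrophages, and 5.97, 4.47 and 4.24 FPKM without and 1.96, 1.21 and 1.42 FPKM with LPS in osteoclasts. Macrophages rose, osteoclasts fell, and no groups overlapped. The interaction of P2ry6 was -1.89 (SE 0.16, adjusted p 8.91e-07). Ndst2, an enzyme of heparin synthesis, (ENSMUSG00000039308, chromosome 14 at 20723730 to 20734562) was at 14.9, 15.7 and 14.3 FPKM without and 26.6, 25.4 and 27.4 FPKM with LPS in macrophages, and 17.5, 18.3 and 17.1 FPKM without and 10.7, 12.7 and 12.1 FPKM with LPS in osteoclasts. Untreated osteoclasts were slightly above untreated macrophages and ended below them. The interaction of Ndst2 was -1.32 (SE 0.09, adjusted p 9.78e-08). Dab2, an endocytic adapter, (ENSMUSG00000022150, chromosome 15 at 6299788 to 6440712) had an effect of 0.20 in macrophages, not called, and of -0.70 in osteoclasts. The interaction of Dab2 was -0.91 (SE 0.16, adjusted p 0.000472), with no call after quantile normalization. Hilpda, a lipid droplet protein, (ENSMUSG00000043421, chromosome 6 at 29272488 to 29275446) was at 3.64, 4.36 and 4.03 FPKM without and 2.2, 2.25 and 2.13 FPKM with LPS in macrophages, and 21.2, 21.2 and 19.7 FPKM without and 35.9, 36.9 and 33.5 FPKM with LPS in osteoclasts. Its interaction was 1.40 (SE 0.08, adjusted p 4.13e-08). The blood vessel growth factor Vegfa (ENSMUSG00000023951, chromosome 17 at 46016993 to 46032369) was at 6.82, 6.45 and 5.54 FPKM without and 3.6, 3.14 and 3.79 FPKM with LPS in macrophages, and 7.28, 6.88 and 7.72 FPKM without and 11.5, 11.1 and 11.2 FPKM with LPS in osteoclasts. Both genes are known targets of hypoxia signalling, and both fell in macrophages and rose in osteoclasts without overlap. The interaction of Vegfa was 1.25 (SE 0.10, adjusted p 7.42e-07). The 7 genes became 22 as TPM, 22 where the pseudocount was 0.1 and 21 in voom, and the 14 genes became 36 and 34 in the last 2 of these.

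**Figure D3:**
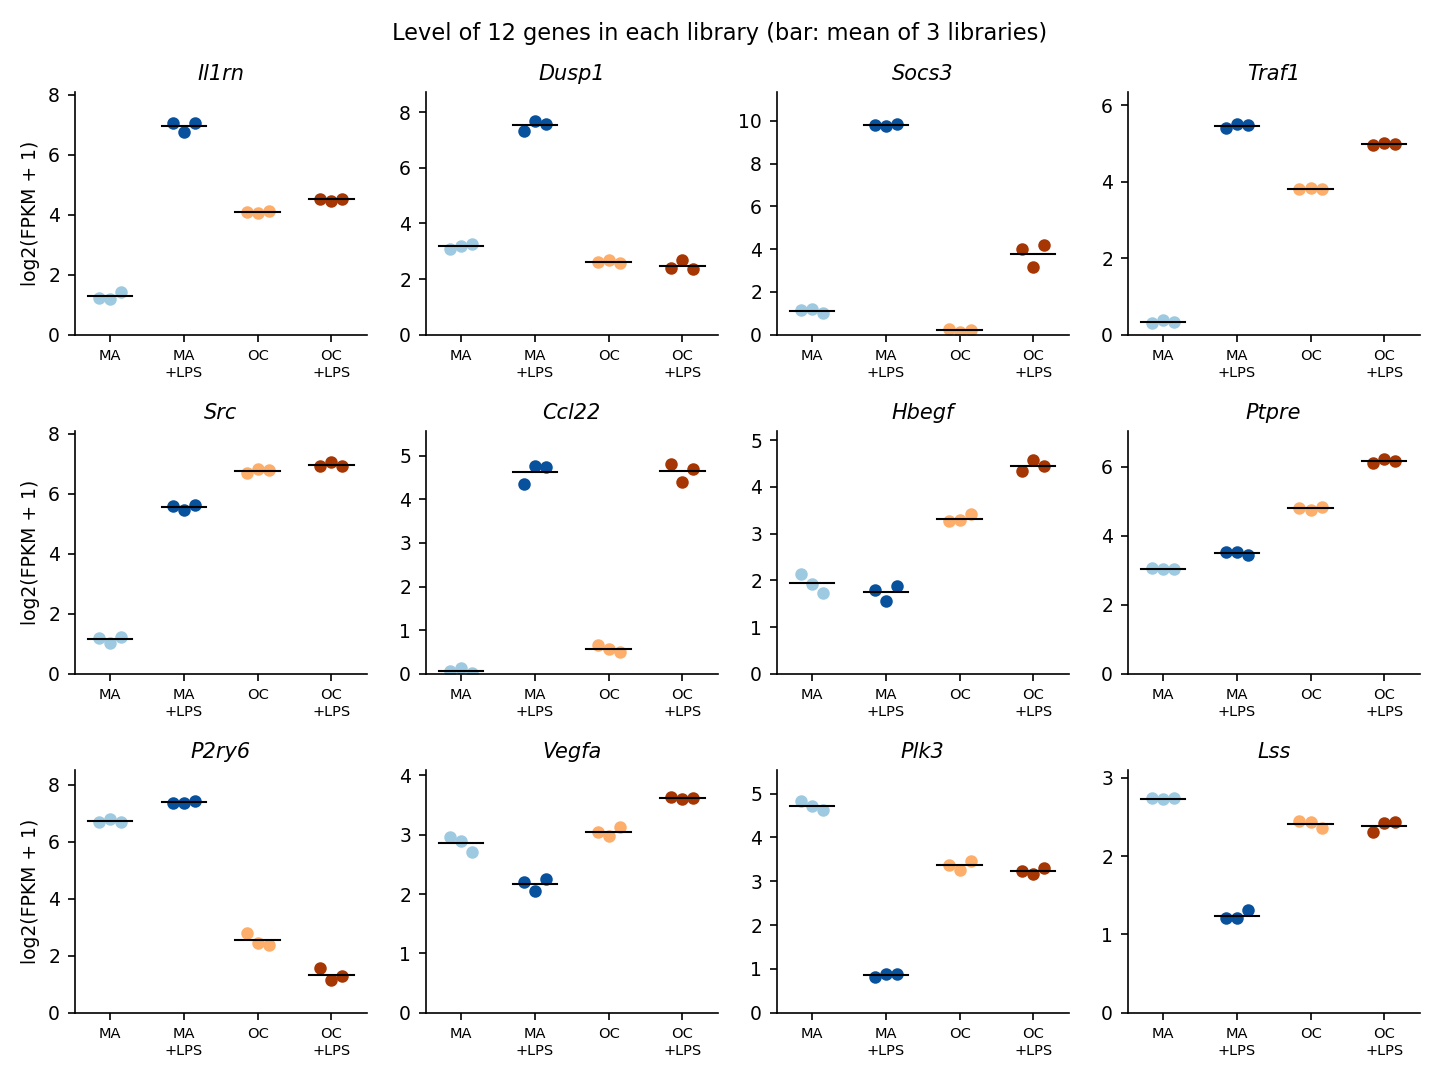
Level of 12 genes in each library as log2(FPKM + 1), by group (MA, macrophages; OC, osteoclasts; 3 points per group, 1 per library; bar, mean). Il1rn, Traf1 and Src start high in osteoclasts, Plk3 and Lss fall only in macrophages, Hbegf and Ptpre rise most in osteoclasts, and P2ry6 and Vegfa move in opposite directions.

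An interaction can arise from equal or from different starting levels. In 829 genes the cell types were within 0.5 of each other without LPS and at least 1 apart with it, 210 with an interaction above 0 and 619 below; Il1b, Il1a, Dusp2 and Ifnb1 were the 4 named. In 256 genes (550 as TPM) they were at least 1 apart without LPS and within 0.5 with it. Cdc42ep2, an effector of the GTPase Cdc42, (ENSMUSG00000045664, chromosome 19 at 5915636 to 5924816) was at 1.01, 1.2 and 1.36 FPKM without and 40.3, 47.7 and 40.5 FPKM with LPS in macrophages, and 27.8, 22.9 and 27 FPKM without and 32.8, 34 and 33 FPKM with LPS in osteoclasts. LPS took macrophages to slightly above the osteoclast level, and the interaction was -3.97 (SE 0.12, adjusted p 1.74e-10). Traf1, an adapter of tumour necrosis factor receptors, (ENSMUSG00000026875, chromosome 2 at 34941750 to 34961772) was at 0.24, 0.318 and 0.25 FPKM without and 41.6, 44.7 and 43.7 FPKM with LPS in macrophages, and 13, 13.4 and 13 FPKM without and 30.0, 31.5 and 30.7 FPKM with LPS in osteoclasts. It was high in osteoclasts without LPS. With LPS it was within 0.5 of macrophages but lower than in macrophages in every library. The interaction of Traf1 was -3.96 (SE 0.06, adjusted p 2.71e-12). Cd300lb, an activating immune receptor, (ENSMUSG00000063193, chromosome 11 at 114922781 to 114934386) was at 102, 102 and 91.3 FPKM without and 2.77, 4.39 and 3.24 FPKM with LPS in macrophages, and 9.73, 7.95 and 8.9 FPKM without and 3, 3.09 and 2.89 FPKM with LPS in osteoclasts. Macrophages fell to the level that osteoclasts reached, with overlap of the LPS-treated libraries, and the interaction was 3.19 (SE 0.16, adjusted p 8.08e-09). Lpar6, a receptor for lysophosphatidic acid, (ENSMUSG00000033446, chromosome 14 at 73237895 to 73243294) was at 12.9, 13.4 and 13 FPKM without and 0.319, 0.335 and 0.343 FPKM with LPS in macrophages, and 0.712, 0.625 and 0.425 FPKM without and 0.271, 0.228 and 0.254 FPKM with LPS in osteoclasts. It fell in both cell types, and LPS-treated macrophages stayed above LPS-treated osteoclasts in every library, by a difference that limma did not call (adjusted p 0.236). The interaction of Lpar6 was 3.06 (SE 0.10, adjusted p 2.66e-10).

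**Figure D4:**
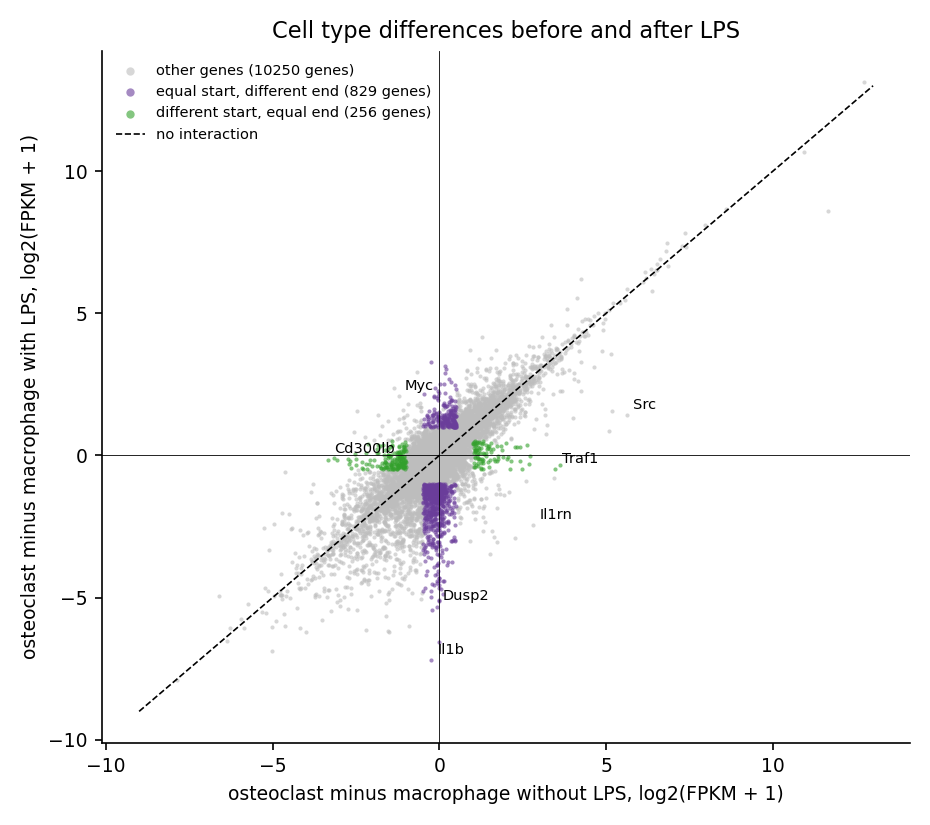
Difference between osteoclasts and macrophages without LPS (horizontal) and with LPS (vertical), both in log2(FPKM + 1), 1 point per gene; genes on the dashed line have an interaction of 0. The 829 genes in purple start alike and end apart, and the 256 in green start apart and end alike (550 after rescaling to TPM). Alike means within 0.5 and apart at least 1, so genes that end alike by this rule, such as Traf1, can still differ in every library.

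Osteoclast genes as a list had an interaction median of 0.02, with 6 of 19 called above 0 and 5 below (4 and 5 in all 4 fits), and the osteoclast effect was called for 4. Over all genes 26.6% were above 0, 30.0% below 0 and 17.7% called for the osteoclast effect, so the counts before the condition of all 4 fits lie near the background. In all 4 fits 23.6% of all genes were above 0 and 12.8% below. The 5 of 19 osteoclast genes below 0 in all 4 fits are a larger share than the latter. The 4 genes below 0 described here were raised in macrophages. Src was at 1.3, 1.05 and 1.35 FPKM without and 47.9, 42.6 and 48 FPKM with LPS in macrophages, and 104, 112 and 110.5 FPKM without and 120.2, 133 and 119.8 FPKM with LPS in osteoclasts. LPS raised it in every macrophage library to a level below that of osteoclasts, whose effect of 0.19 was not called. The interaction of Src was -4.21 (SE 0.09, adjusted p 2.31e-11). Acp5 was at 1.72, 0.775 and 0.354 FPKM without and 14.9, 12.1 and 16.7 FPKM with LPS in macrophages, and 5773, 6132 and 6059.8 FPKM without and 5852, 6425 and 5748 FPKM with LPS in osteoclasts. Macrophages rose within a range far under that of osteoclasts, and the interaction was -3.04 (SE 0.27, adjusted p 1.6e-06). Clcn7, a chloride transporter of the resorbing membrane, and Tcirg1, a subunit of the proton pump beside it, had -1.36 and -1.27, with macrophage effects of 1.31 and 1.17. Nfatc1 was at 7.01, 6.97 and 7.13 FPKM without and 4.75, 4.61 and 4.62 FPKM with LPS in macrophages, and 114, 114 and 114 FPKM without and 128, 141 and 132 FPKM with LPS in osteoclasts. It fell in macrophages and rose in osteoclasts, each without overlap, with an interaction of 0.74 (SE 0.06, adjusted p 3.2e-07). Atp6v0d2, a proton pump subunit tied to cell fusion, had 0.47.

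Macrophage genes had a median of -0.18 (0.40 after rescaling to TPM), with 6 of 20 called below 0 and 5 above (3 and 3 in all 4 fits), near the 30.0% below and 26.6% above over all genes. Cebpa, a myeloid transcription factor, was at 181, 190.2 and 172 FPKM without and 16.5, 21 and 18.7 FPKM with LPS in macrophages, and 11.6, 10.2 and 10.4 FPKM without and 2.07, 1.72 and 2.2 FPKM with LPS in osteoclasts. It fell in both cell types and no groups overlapped. The interaction of Cebpa was 1.24 (SE 0.12, adjusted p 3.47e-06). Cx3cr1, the fractalkine receptor, fell by 1.89 in macrophages and was under 1 FPKM in every osteoclast library, with 1.65, not called in voom. Msr1, a scavenger receptor, had -1.46, and Spi1, the lineage factor PU.1, -0.91. Outside the lists, Rnd1 and Rnd3, atypical small GTPases, had -5.17 (SE 0.14, adjusted p 8.22e-11) and -4.76 (SE 0.11, adjusted p 2.72e-11). Rnd1 (ENSMUSG00000054855, chromosome 15 at 98663421 to 98677461) was at 0.291, 0.215 and 0.0908 FPKM without and 176, 153 and 180.1 FPKM with LPS in macrophages, and 3.94, 5.05 and 5.29 FPKM without and 23.7, 20.5 and 21 FPKM with LPS in osteoclasts. Olr1, a receptor for oxidised lipoprotein, (ENSMUSG00000030162, chromosome 6 at 129485244 to 129507165) reached 107, 105 and 108 FPKM in macrophages and 0.636, 0.218 and 0.568 FPKM in osteoclasts. The interaction of Olr1 was -4.69 (SE 0.13, adjusted p 8.14e-11). Rnd3 (ENSMUSG00000017144, chromosome 2 at 51130438 to 51149111) was higher in untreated osteoclasts than in untreated macrophages, by 1.72 on the log2(FPKM + 1) scale, and lower with LPS, at -3.04.

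A log2 effect hides how many transcripts a rise adds, so the rise in mean FPKM in osteoclasts was also set against that in macrophages. Over the 1365 genes that macrophages raised by 1 or more, the osteoclast rise was a median of 5.60% of the macrophage rise (quartiles 2.52 and 10.6%), and in 159 the osteoclast mean fell. These genes were chosen by their macrophage effect, so low percentages follow in part from that choice. The 29 antiviral genes of that set lay in a narrow band of 3.32 to 10.8% with a median of 6.17%, whereas their log2 effects in osteoclasts were a median of 51.4% of those in macrophages. The 13 guanylate-binding proteins and relatives had a median of 5.78% (1.8 to 20.7%), the 17 chemokines 4.35% (0 to 99.3%), the 18 cytokines 3.24% (0 to 122%) and the 17 NF-kB genes 9.4% (-2.74 to 70.1%). At the ends of the chemokine and cytokine ranges were Ccl22 with 99.3% and Lif with 122%. Traf1 had 41%, Nfkbia 6.98% and Il1b 0.56%. The ratio of mean FPKM with LPS to that without is a further measure, and was not lower in osteoclasts for every raised gene. Cxcl2 had a ratio of 126 in macrophages and 268 in osteoclasts, Csf1 11.8 and 24.2, and Nlrp3 8.17 and 22.8. Mx1 had 394 and 543, and Cd40 70.3 and 71.3. For most other raised genes of the lists the ratio was lower in osteoclasts. Of the raised genes with a promoter window, the 89 with an ISRE match alone had a median osteoclast rise of 5.72% of the macrophage rise, the 87 with an NF-kB match alone 7.11%, the 9 with both 4.57% and the 821 with neither 5.91%. With LPS, 74 of the 1365 genes were at or above the macrophage level in osteoclasts and 442 were under 10% of it. Without LPS, the 20 macrophage genes ranged in osteoclasts from 0.342 to 214% of their macrophage level. In whole cultures, fewer responding cells and a smaller response per cell cannot be told apart.

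**Figure D5:**
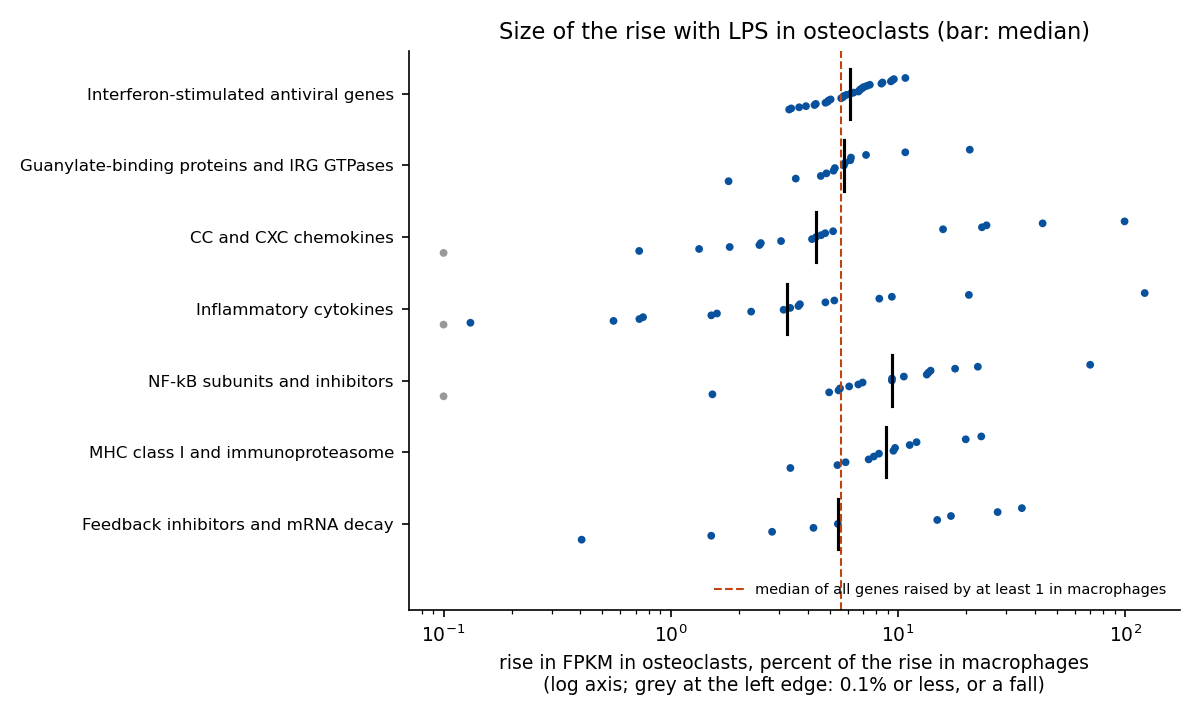
Rise in mean FPKM with LPS in osteoclasts as a percent of the rise in macrophages (log axis), for genes that macrophages raised by 1 or more, in 7 lists (point, gene; bar, median; dashed line, median of all 1365 genes). The antiviral genes span 3.32 to 10.8%, while cytokines and chemokines reach from under 1% to about the macrophage rise.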

How the data were processed

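Each of the 12 samples was a bulk RNA-seq library. The authors deposited FPKM values; per the submitters' processing notes, fastp, STAR, featureCounts, DESeq2 and build mm10 were named, without versions. Gene by gene the deposited FPKM values are whole multiples of a step, so whole reads could be recovered (25854 of 25854 genes above 0, tolerance 0.02). The denominators of the libraries departed by at most 0.000664% from median-of-ratios size factors, so the values are scaled to the typical gene, which is inferred. Genes that reached 1 FPKM in 3 or more libraries were fitted in R 4.3.3 with limma 3.58.1 (lmFit, contrasts.fit and a trended eBayes) on log2(FPKM + 1), with 12 libraries and 4 group means, two-sided, with Benjamini-Hochberg adjustment over 11335 genes; log2 differences understate the change of low genes. Counts of 3 reads or fewer are at the floor, which covers counting error only.

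Members, lists, classes and alternatives were chosen with earlier results of these data known. The rule named, per class, the 4 largest interactions called with the same sign in the fit described, at a pseudocount of 0.1, as TPM and in voom, with a mean of at least 5 FPKM in a group; genes of the lists could also be named. The list genes described were picked once their values were known, and genes whose sign reversed in another fit were mostly passed over; 115 genes are described with an interaction. Some genes of the lists are not reported here. On simulated data of 10958 genes with 3 libraries per group, 98% of 99 genes with an interaction of size 1 and 100% of 96 of size 2 were called, and 6.31% of 206 calls were false. Gene positions come from GENCODE M21 (GRCm38). Strand use in counting is not given in the sources used here, so values are uncertain where exons overlap those of another gene on the opposite strand, as for Il1b, Il1a, Dusp1, Plk3, Irf2bp2, Fam83g, Ptpre, Arhgap22, Dab2, Lpar6, Myd88, Irak2, Irak4, Nfkb2, Mafk, Junb, Il27, Cxcl10, Cxcl11, Irf1, Oasl1, Zfp36, Zfp36l1, Zfp36l2, Sphk1, Acp5, Cebpa, Cx3cr1, Lss, Tap1, Cd274, Ppp1r15a and Cdc20; Gbp7 has such an overlap on the same strand. Alternatives were no filter, a filter at a mean of 5 FPKM, a pseudocount of 0.1, TPM, quantile normalization, no variance trend, library weights, the replicate number as a block, voom on the recovered reads, and each library left out in turn. Tables and figures were made with Python 3.11.15, pandas 2.3.3, numpy 2.4.6 and matplotlib 3.10.9.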

Additional observations from a re-analysis of the deposited data

Results flagged for a closer look

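The interaction is itself a test of whether the LPS effect differs between the cell types, and a called interaction was what brought each value here. Limma called it for 6413 genes. Of the genes that the rule named, those with the same start and a weaker or near-absent rise in osteoclasts were Il1b at -6.96, Il1a at -6.56, Dusp2 at -5.24 and Ifnb1 at -5.09 on the log2(FPKM + 1) scale. Rnd1 at -5.17, Il1rn at -5.25, Rnd3 at -4.76, Cdc42ep2 at -3.97 and Traf1 at -3.96 were higher in osteoclasts without LPS and rose more in macrophages. Olr1 was at -4.69 and Dusp1 at -4.47.

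Genes lowered more in macrophages were Plk3 at 3.73, Irf2bp2 at 3.51, Hhex at 3.38, Myc at 3.31, Cd300lb at 3.19 and Lpar6 at 3.06. Hbegf was at 1.32, Fam83g at 1.03, Ptpre at 0.92 and Arhgap22 at 0.78, all raised in osteoclasts by at least 1. Hilpda was at 1.40 and Vegfa at 1.25, lowered in macrophages and raised in osteoclasts, and P2ry6 at -1.89 and Ndst2 at -1.32 moved in the reverse directions. Dab2 was at -0.91.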

How the results depend on the processing

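The count of called interactions stayed within 1.5 times of 6413 in all alternatives but 1: with a mean of at least 5 FPKM, which tests fewer genes, it was 4018, with 1473 above 0. Rescaling to TPM moved the split to 7175 above and 1572 below 0. Leaving out each library in turn gave 6049 to 6345 calls, 2801 to 2958 above 0 and 3242 to 3455 below. Deviations from the group means correlated at -0.07 to 0.104 in the 18 pairs of libraries with the same replicate number. In the 36 other pairs the range was -0.137 to 0.11, and such values cannot settle whether replicate numbers pair the libraries. With the number as a replicate block, 6422 interactions were called, 3013 above and 3409 below 0. For the 115 genes described with an interaction, 2385 of 2405 values under an alternative kept direction and call, 20 lost the call and 0 reversed. That last count follows in part from how the genes were chosen, since 1222 of the 6413 called genes reversed after rescaling to TPM. Lists whose genes lie near 0 therefore carry no direction beyond the deposited scaling, and genes with few reads in untreated cells depend on the pseudocount. Counts of the classes of response moved by over 1.5 times under some settings. The class lowered in macrophages with little osteoclast effect held 489 genes, and 837 with a pseudocount of 0.1, 857 in voom and 1939 after rescaling to TPM. The class raised in macrophages with little osteoclast effect held 772, and 427 after rescaling to TPM. The class raised more in osteoclasts held 9, and 25 with a pseudocount of 0.1, 29 in voom and 24 after rescaling to TPM. The 14 genes lowered in osteoclasts with an interaction below 0 became 36 at the smaller pseudocount and 34 with voom. The 7 genes with opposite effects became 22 at the smaller pseudocount or after rescaling to TPM, 21 in voom and 4 with no filter. The 256 genes that started apart and ended within 0.5 became 550 after rescaling to TPM. With a mean of at least 5 FPKM, which tests fewer genes, these classes held 234, 487, 5, 8, 4 and 123 genes, and those that started alike and ended apart 453 in place of 829. The cause of the other shifts was not tested.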
